A study of Mus musculus with 3 samples.

Results

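The 49 genes described here mark macrophages and other myeloid cells, white cells that engulf particles and dying cells. They were taken as a named set, chosen with earlier results of the same data known, out of 56833 genes in the deposited table. All 49 were found in it. Averaged over the libraries, 45 reached the count minimum of 10 normalized counts, and 4 stayed under it, of which Cx3cr1 and Timd4 had no read. The values that led to the choice are those given below, so the differences between plates are a description and carry no test.

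The RNA came from ankle synovium, the lining tissue of the joint, of Efhd1CreER; Ai9 mice. In these mice CreER, an inducible Cre recombinase made under control of the Efhd1 gene, switches on the red reporter tdTomato. Cells sorted by flow cytometry for tdTomato, named telocytes by the submitters, were kept for 24 h on collagen-coated plates whose stiffness was 0.2 kPa (soft), 8 kPa (intermediate) or 64 kPa (stiff), and 1 stranded mRNA library was sequenced per stiffness. Every group shares the genotype, the sort and the culture, none holds untreated or unsorted cells, and how many mice or dishes went into a library is not given in the sources used here. With 1 library per group no p-value is possible, and a difference between plates cannot be told apart from one between cultures.

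Macrophages depend on the growth factor receptor Csf1r and on the transcription factor PU.1, the product of Spi1, which binds purine-rich GGAA sites near the start of many myeloid genes. They take up debris and immune complexes through scavenger, Fc and lectin receptors, several of which signal through the small adaptors Fcer1g and Tyrobp. In the joint they line the synovial surface and lie beneath it, and they are known for clearing debris and for releasing proteases and cytokines in arthritis. In bulk RNA a higher level of such genes through more cells of this type cannot be told apart from more RNA per cell.

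Promoter sequence was available for 37 of the 49 genes in RefSeq's table for GRCm38.p6, and the 250 bases before each start were searched on both strands for GAGGAA, a core of PU.1 sites, and for its longer form GAGGAAGT, which contains it. A gene with several starts counted as holding a match if any of its windows did. GAGGAA was held by 21 of the 37 genes (56.8%), against 25.9% of all 27025 genes in that table. GAGGAAGT was held by 3 of them, C1qc, Fmnl1 and Mmp12 (8.11%), against 2.79% of all genes. The windows below are those of Marco, which had the highest ratio of stiff to soft, of C1qb, Clec4e and Trem2 as members of 3 receptor and complement groups, of Mmp12, which had the most counts on average over the libraries, and of Cybb and Ncf1, partners in 1 enzyme whose courses over the plates differed. Each runs 5′ to 3′ along its gene's strand, and capitals mark GAGGAA, GAGGAAGT or their reverse complements.
Marco (chr1:120505025-120505274, minus strand): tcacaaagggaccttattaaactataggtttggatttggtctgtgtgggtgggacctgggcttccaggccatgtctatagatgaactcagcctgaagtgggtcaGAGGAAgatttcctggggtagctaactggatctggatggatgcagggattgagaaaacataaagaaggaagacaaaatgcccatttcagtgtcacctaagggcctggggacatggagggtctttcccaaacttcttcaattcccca
C1qb (chr4:136886201-136886450, minus strand): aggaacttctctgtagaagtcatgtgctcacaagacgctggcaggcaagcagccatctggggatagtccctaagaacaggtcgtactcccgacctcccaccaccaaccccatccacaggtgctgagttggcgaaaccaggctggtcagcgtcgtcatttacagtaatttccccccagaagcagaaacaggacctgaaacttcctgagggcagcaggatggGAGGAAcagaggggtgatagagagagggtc
Clec4e (chr6:123289872-123290121, minus strand): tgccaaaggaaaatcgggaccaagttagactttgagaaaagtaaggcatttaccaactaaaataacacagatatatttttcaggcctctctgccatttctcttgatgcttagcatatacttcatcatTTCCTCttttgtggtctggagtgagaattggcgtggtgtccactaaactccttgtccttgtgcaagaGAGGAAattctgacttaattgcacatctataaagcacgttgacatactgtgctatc
Trem2 (chr17:48346151-48346400, plus strand): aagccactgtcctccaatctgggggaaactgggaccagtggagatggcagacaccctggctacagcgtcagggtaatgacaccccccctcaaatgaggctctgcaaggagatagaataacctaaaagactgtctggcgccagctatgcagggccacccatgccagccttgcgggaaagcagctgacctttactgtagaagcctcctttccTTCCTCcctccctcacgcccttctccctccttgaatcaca
Mmp12 (chr9:7344147-7344396, plus strand): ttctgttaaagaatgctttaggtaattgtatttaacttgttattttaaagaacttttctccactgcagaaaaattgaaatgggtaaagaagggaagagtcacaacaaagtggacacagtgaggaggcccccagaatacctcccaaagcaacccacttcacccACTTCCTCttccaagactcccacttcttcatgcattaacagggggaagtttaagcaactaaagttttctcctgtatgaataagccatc
Cybb (chrX:9469325-9469574, minus strand): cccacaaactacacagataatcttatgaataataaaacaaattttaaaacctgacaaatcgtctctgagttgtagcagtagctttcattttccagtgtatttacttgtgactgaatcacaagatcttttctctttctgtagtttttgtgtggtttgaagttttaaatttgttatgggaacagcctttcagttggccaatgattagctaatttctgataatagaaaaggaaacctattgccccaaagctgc
Ncf1 (chr5:134229626-134229875, minus strand): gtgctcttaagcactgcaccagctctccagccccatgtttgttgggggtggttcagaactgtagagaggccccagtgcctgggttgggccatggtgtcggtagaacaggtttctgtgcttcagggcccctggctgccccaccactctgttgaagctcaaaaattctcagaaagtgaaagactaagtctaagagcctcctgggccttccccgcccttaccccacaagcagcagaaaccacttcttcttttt
The match in Mmp12 begins 86 bases before the start and those in Marco and C1qb begin 146 and 30 bases before it. No match lies in these windows of Cybb and Ncf1, which says only that these letters are not there. A match of letters is a description and not a binding site. Csf1r, Spi1, Adgre1, C1qa, Cd14, Tyrobp, Msr1, Itgb2, Cd52, Ncf4, Rac2 and Lyve1 were not matched.

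The libraries held 25487064, 28081600 and 26474862 reads in the order soft, intermediate and stiff, and values given in groups of 3 follow that order. One read was worth 1.03, 0.943 and 1.03 normalized counts, the unit of the deposited values, in which each library was rescaled by its own size factor. Log2 ratios add a pseudocount of 1, and the intervals beside them are exact binomial (Clopper-Pearson) 95% intervals that cover counting error only, not differences between cultures. The sorted cells carried the stromal markers Pdgfra (5884, 6298 and 5118 normalized counts) and Cd34 (235, 242 and 318). Efhd1 itself had 10, 5 and 3 reads. tdTomato stood at 818, 1193 and 2668 normalized counts, a stiff to soft log2 ratio of 1.70 (1.59 to 1.82), and its part in the differences below was not tested.

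The macrophage and myeloid genes were higher on the stiffer plates. Summed over the 49, they took 0.384% of all normalized counts on the soft plate, 0.502% on the intermediate and 0.715% on the stiff plate. All 45 genes with enough counts were above 0 in the stiff to soft log2 ratio, where 50.9% of the 14291 genes past the same minimum were. The median log2 ratio of the 45 was 1.09, against 0.00044 over all genes. At least 1 on the log2 scale was reached by 27 of the 45, against 4.16% of all genes, and none was at or under -1, against 1.59% of all genes.

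The intermediate plate lay between the others for most of them. Of the 45 genes, 43 had their lowest value on the soft and their highest on the stiff plate, where 28.4% of all genes had that order. Between intermediate and soft the median was 0.44, against 0.0096 over all genes, and 44 of 45 were above 0, against 52.6%. Dock2 alone reached 1 in that comparison, against 0.868% of all genes, and Vsig4 alone was at or under -1, against 0.637%. Between stiff and intermediate the median was 0.64, against 0.0065 over all genes. There 5 of the 45 reached 1, against 1.8% of all genes, and none was at or under -1, against 1.36%. Because the 3 comparisons share libraries, they are not independent of each other.

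**Figure D1:**
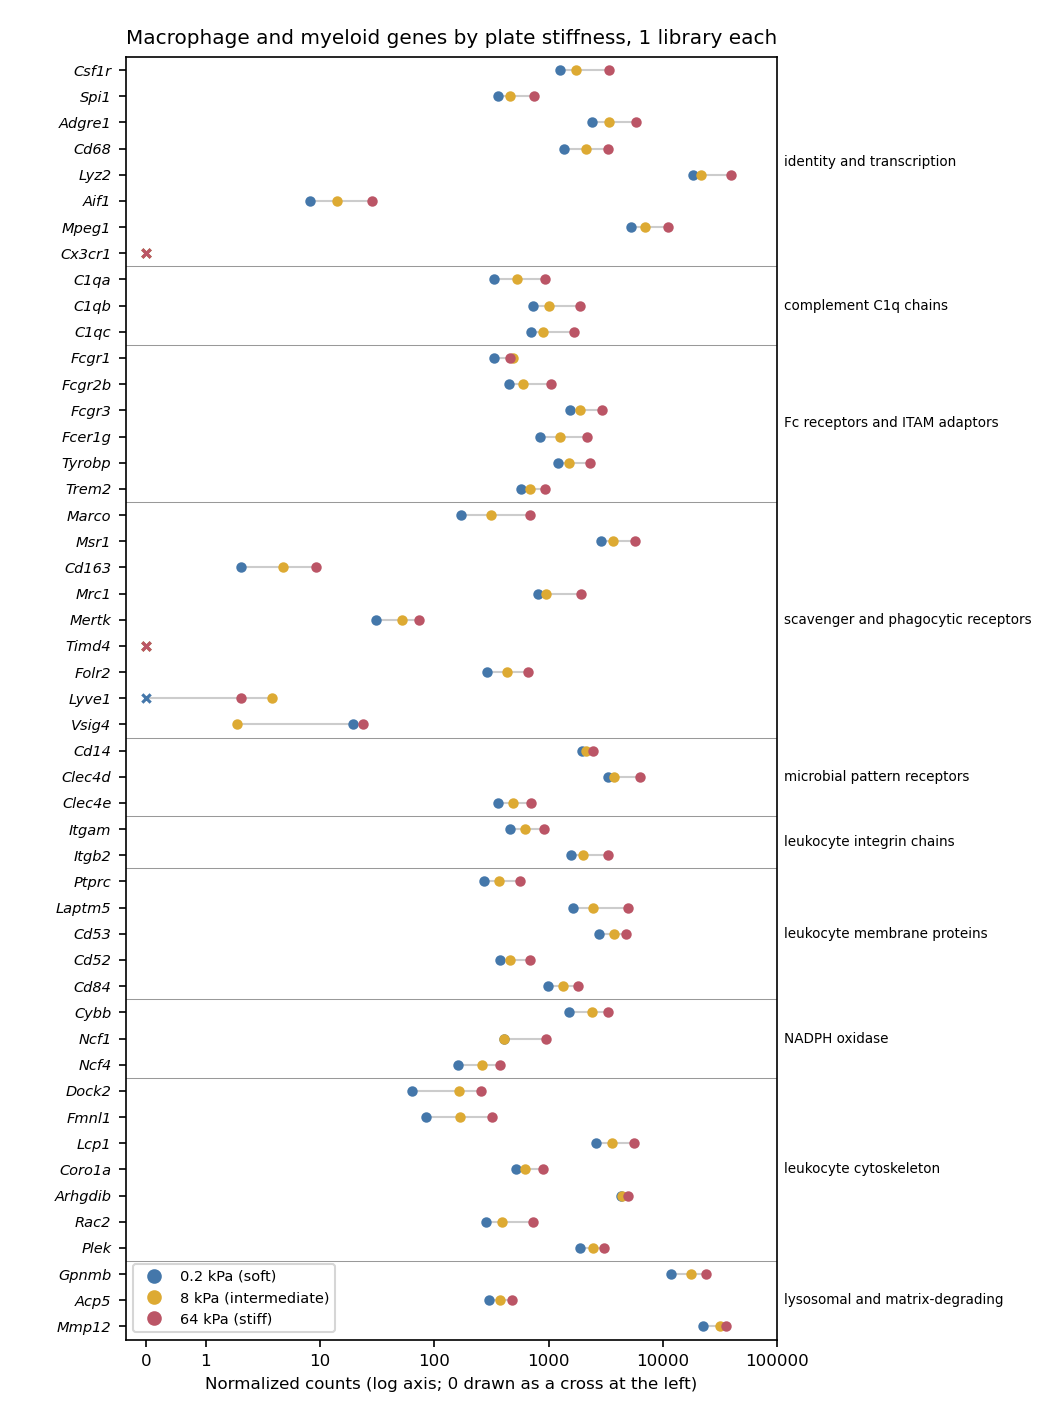
Normalized counts (log axis) of the 49 genes, grouped by the role of their products, with 1 point per library for 0.2, 8 and 64 kPa and a cross at the left for a value of 0. In 43 of the 45 genes with a mean of at least 10 the points run from soft through intermediate to stiff, and Cx3cr1 and Timd4 had no read.

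Among the genes that define the lineage, Csf1r, the receptor that keeps macrophages alive, stood at 1267, 1725 and 3359 normalized counts, and its stiff to soft log2 ratio was 1.41 (counting interval 1.31 to 1.50). Spi1, which encodes PU.1, stood at 360, 457 and 753, with a ratio of 1.06 (0.88 to 1.25). Adgre1, the surface protein F4/80, stood at 2395, 3404 and 5785, with a ratio of 1.27. Each of these 3 genes was lowest on the soft and highest on the stiff plate, and their counting intervals for stiff against soft lay far above 0. Cd68, a glycoprotein of macrophage lysosomes, stood at 1365, 2141 and 3321. Mpeg1, a pore-forming protein of phagocytes, stood at 5234, 7040 and 11016. Lyz2, the lysozyme of myeloid cells, had values of 18362, 21482 and 39173. For Lyz2 most of the difference lay in the second step, with log2 ratios of 0.23 from soft to intermediate and 0.87 from intermediate to stiff, while for Cd68 the 2 steps were 0.65 and 0.63.

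Per length of transcript Lyz2 was the highest of the 49 on the stiff plate, with 6131 normalized counts per kilobase on the soft and 13080 on the stiff plate, where Mmp12 followed with 9860 and Gpnmb with 6285. On the soft and intermediate plates Mmp12 was ahead of Lyz2, at 6275 against 6131 and 8821 against 7173 per kilobase. The lengths used were 3607 nt for Mmp12 and 2995 nt for Lyz2, and with other transcript lengths that order could change. Lyz2 is 95.8% identical to Lyz1 over 1270 nt, so how reads were split between them is uncertain. Lyz1 was listed with 26, 34 and 71 reads. Aif1, a calcium-binding protein of macrophages and microglia, had only 8, 15 and 28 reads. Its stiff to soft ratio of 1.69 had a counting interval from 0.64 to 3.15, so its place among the higher ratios is loose. Cx3cr1, the fractalkine receptor, had no read in any library, which allows up to 3.08, 2.83 and 3.08 normalized counts.

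The chains of complement C1q, which opens the classical complement pathway and coats dying cells, lie side by side on chromosome 4 of GRCm39, C1qb at 136606009 to 136613511, C1qc at 136616466 to 136620376 and C1qa at 136623223 to 136626161, all on the minus strand. C1qa stood at 330, 525 and 929 normalized counts. C1qb stood at 731, 1012 and 1883, and C1qc at 706, 897 and 1677. Their stiff to soft ratios were 1.49 (1.31 to 1.68), 1.36 (1.24 to 1.49) and 1.25 (1.12 to 1.38). The ratios of C1qa and C1qb differed by 0.13, with a counting interval from -0.10 to 0.35 that holds 0. Those of C1qa and C1qc differed by 0.25, from 0.018 to 0.47, which lies just above 0. Both pairs belong to 15 pairs of genes set side by side after the values had been seen.

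Among receptors for antibody and their adaptors the genes did not keep 1 course. Fcer1g, the gamma chain that carries signals for several Fc receptors, stood at 841, 1252 and 2152, with a stiff to soft ratio of 1.35 (1.24 to 1.47). Fcgr1, the high-affinity receptor for IgG that pairs with it, stood at 330, 489 and 460, with a ratio of 0.48 (0.27 to 0.69). Fcgr1 was thus as high on the intermediate as on the stiff plate, with a ratio between them of -0.09 (-0.27 to 0.10). The stiff to soft ratio of Fcer1g exceeded that of Fcgr1 by 0.88 (0.63 to 1.12). Between intermediate and soft they differed by 0.0069 (-0.24 to 0.25).

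The inhibitory receptor Fcgr2b stood at 451, 600 and 1051 and the activating receptor Fcgr3 at 1551, 1900 and 2942. Their stiff to soft ratios were 1.22 and 0.92 and differed by 0.30 (0.11 to 0.49). Over 509 nt their transcripts are 96.5% identical, so how reads were split between them is uncertain. Tyrobp, the adaptor DAP12, stood at 1203, 1511 and 2318, with a ratio of 0.95 (0.84 to 1.05). Trem2, a lipid-sensing receptor that signals through Tyrobp, stood at 569, 683 and 931, with a ratio of 0.71 (0.56 to 0.87). The adaptor's ratio was the higher by 0.24 (0.049 to 0.42).

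The scavenger and phagocytic receptors included well covered genes and genes at or near 0. Marco, a collagen-like receptor for bacteria and particles, stood at 170, 316 and 686, with the highest stiff to soft ratio of the 45, at 2.00 (1.76 to 2.27). Msr1, the class A scavenger receptor, stood at 2865, 3662 and 5723, with a ratio of 0.998 (0.93 to 1.06), the nearest under the threshold of 1. Mrc1, the mannose receptor CD206, stood at 812, 946 and 1934, and its steps were 0.22 and 1.03. Folr2, a folate receptor of tissue-resident macrophages, stood at 290, 433 and 662, but 72.5% of its canonical transcript lies opposite exons of other genes, and the strand setting of the counting is not given in the sources used here. Mertk, a receptor for dying cells, was low, at 30.8, 51.8 and 73.8.

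Some other markers of resident macrophages were at or near 0, while Folr2, Mrc1 and Trem2, described above, were not. Timd4, a receptor for phosphatidylserine, had no read. Lyve1, a hyaluronan receptor also made by lymphatic endothelium, had 0, 4 and 2 reads. Cd163, the hemoglobin scavenger receptor, had 2, 5 and 9 reads. These 3 genes fall under the count minimum, and no order between the plates is read from them. Vsig4, a complement receptor of resident macrophages, had 19, 2 and 23 reads. It was the 1 gene far lower on the intermediate plate, with an intermediate to soft ratio of -2.83 (-6.52 to -1.32), while its stiff to soft ratio of 0.26 had an interval from -0.66 to 1.23.

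The genes grouped here as receptors for microbial products were 3, and the ratio of each was under the median of 1.09. That holds for this grouping only. Marco, Mrc1 and Msr1, which can also bind microbes, were placed with the scavenger receptors, at 2.00, 1.25 and 0.998. Cd14, the co-receptor for lipopolysaccharide, stood at 1975, 2133 and 2450, with a stiff to soft ratio of 0.31 (0.22 to 0.40). Clec4d stood at 3348, 3759 and 6378 and Clec4e, the receptor Mincle, at 364, 493 and 701. These neighbouring lectin genes, which can form a joint receptor, had stiff to soft ratios of 0.93 and 0.94. Their courses were unequal over the first step, where Clec4e exceeded Clec4d, at 0.44 against 0.17, with a difference (Clec4d less Clec4e) of -0.27 (-0.48 to -0.062).

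The integrin chains that form the complement receptor CR3 had stiff to soft ratios of 0.98 for Itgam (458, 618 and 906) and 1.10 for Itgb2 (1557, 1997 and 3337). The difference, -0.12, had an interval from -0.31 to 0.073 that holds 0, while over the second step it was -0.19 (-0.36 to -0.022). Exons of another gene on the same strand cover 92.1% of the canonical transcript of Itgam, so its count is uncertain. Among membrane proteins of white cells, Ptprc, the phosphatase CD45, stood at 274, 368 and 564, with a ratio of 1.04 (0.83 to 1.26). Laptm5, a lysosomal protein of blood cells, stood at 1648, 2451 and 4944, and its ratio of 1.58 (1.50 to 1.67) was above that of Csf1r. The tetraspanin Cd53 stood at 2762, 3749 and 4778, with a ratio of 0.79 (0.72 to 0.86). Cd52 and Cd84 had ratios of 0.88 and 0.87. Laptm5 and Cd53 are both found across white cells, and their counting intervals lie far apart.

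Among the 49 were 3 genes of the phagocyte NADPH oxidase, which makes superoxide, with stiff to soft ratios of 1.13 for Cybb, 1.24 for Ncf1 and 1.20 for Ncf4. Cyba, the p22phox subunit of the same enzyme and not among the 49, stood at 4094, 4216 and 4648, with a ratio of only 0.18 (0.12 to 0.24). Cybb, the membrane subunit gp91phox, stood at 1524, 2403 and 3343. The cytosolic subunits stood at 406, 408 and 959 for Ncf1 (p47phox) and at 161, 263 and 372 for Ncf4 (p40phox). Ncf1 was level between soft and intermediate, with a ratio of 0.0078 (-0.19 to 0.21), where Cybb had 0.66 and Ncf4 0.71. The difference of Cybb and Ncf1 over that step was 0.65 (0.43 to 0.87), and over the whole range it was -0.11 (-0.30 to 0.087). The sign of the Ncf1 ratio for the first step turned under 4 of the 6 alternatives, down to -0.03.

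**Figure D2:**
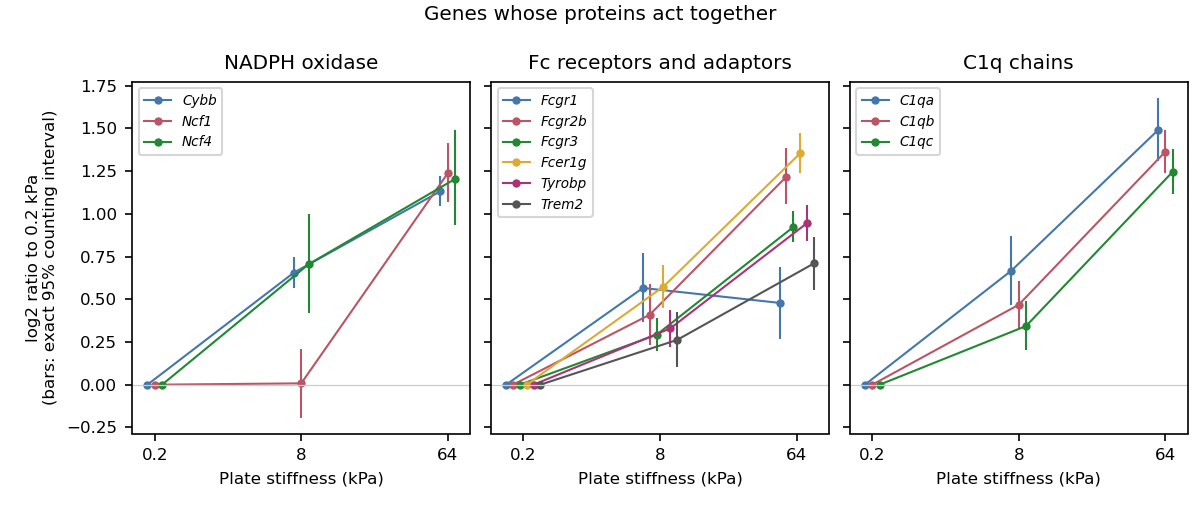
Log2 ratio to the soft plate at 0.2, 8 and 64 kPa (drawn at equal distances) for genes of the NADPH oxidase, the Fc receptors with their adaptors, and C1q, with bars for the exact 95% counting interval (points at 0.2 kPa are 0 by construction). Ncf1 stays at 0.0078 at 8 kPa, and Fcgr1 is at 0.57 at 8 kPa and 0.48 at 64 kPa.

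Genes of the white-cell cytoskeleton ran from 0.21 to 1.98 in the stiff to soft ratio. Dock2, an activator of Rac, stood at 63.6, 163 and 254, and the formin Fmnl1 at 84.1, 169 and 317. Their stiff to soft ratios were 1.98 (1.59 to 2.43) and 1.90 (1.56 to 2.28), next after Marco. Rac2, the Rac of blood cells, stood at 282, 392 and 731, with a ratio of 1.37 (1.17 to 1.58). Lcp1, the actin-bundling L-plastin, had a ratio of 1.10, and Coro1a, an actin-binding coronin, had 0.80. Plek, the protein kinase C substrate pleckstrin, had 0.70. Arhgdib, an inhibitor of small GTPases, stood at 4307, 4385 and 4971, and its ratio of 0.21 (0.15 to 0.27) was the lowest of the 45. Laptm5 and Arhgdib, both well covered, differed by 1.38 (1.28 to 1.48) on the log2 scale.

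The last group holds products of lysosomes and of matrix breakdown. Gpnmb, a membrane glycoprotein of lipid-laden macrophages, stood at 11792, 17836 and 24036, with a stiff to soft ratio of 1.03 (0.995 to 1.06), the nearest above the threshold. Mmp12, the macrophage elastase, stood at 22635, 31817 and 35563, with a ratio of 0.65 (0.63 to 0.68). Acp5, the tartrate-resistant phosphatase of osteoclasts and macrophages, stood at 300, 374 and 479, with a ratio of 0.67. Mmp12 had its larger step first, 0.49 and then 0.16, and Gpnmb likewise, 0.60 and then 0.43. That order held for 11 of the 45 genes, and in 34 the second step was the larger, as it was in 48.0% of all genes.

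Whether the genes share a single ratio was described by setting each gene's counting interval against the ratio of their summed counts. The summed counts of the 49 gave a stiff to soft log2 ratio of 0.95. The interval held that value for 15 of the 45 genes, lay above it for 22 and below it for 8. The 8 were Cd53, Trem2, Plek, Acp5, Mmp12, Fcgr1, Cd14 and Arhgdib. Since Mmp12, Lyz2 and Gpnmb made up 52.7% of the summed counts on the soft plate, the sum was also taken without them, which gave 1.01, with 14 genes holding it, 20 above and 11 below. Against the median of 1.09 the split was 16, 13 and 16.

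As deposited, and without matching for depth, the spread among the genes was about as wide as among genes at large. The interquartile range of their stiff to soft ratios was 0.39, from 0.88 to 1.27, against 0.44 over all 14291 genes. Between intermediate and soft it was 0.26, against 0.25, and 25 of 45 intervals held the ratio of the sums, 0.41. Between stiff and intermediate it was 0.37, against 0.34, and 14 held the ratio of the sums, 0.55. With the trend in transcript length and GC content subtracted, as described below, the range of the stiff to soft ratios was 0.30, against 0.38. The ratios of stiff to soft thus lay on 1 side of 0 and differed among the genes by more than counting error for 30 of the 45, while the spread between cultures has no measure here.

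**Figure D3:**
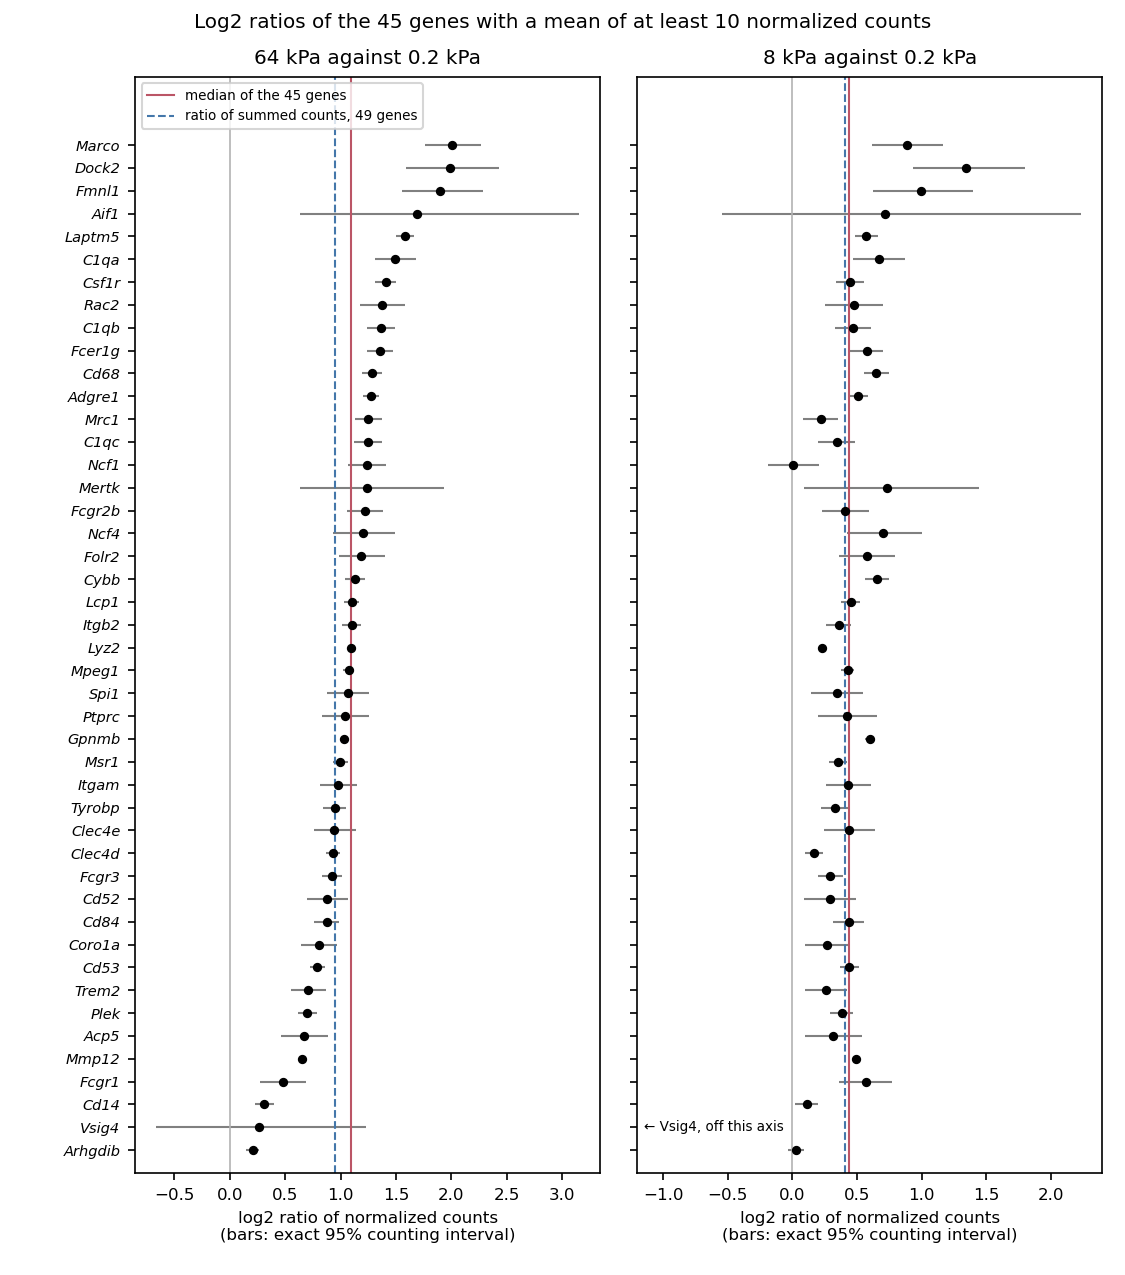
Log2 ratios with exact 95% counting intervals for the 45 genes past the count minimum, stiff against soft (left) and intermediate against soft (right), sorted by the left panel; Vsig4, at -2.83, lies off the right axis. On the left the points run from 0.21 for Arhgdib to 2.00 for Marco, with the median at 1.09 and the ratio of the summed counts at 0.95.

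A list of 68 further genes known from macrophages and myeloid cells, none of them among the 49, was also written with earlier results known, and 1 of its symbols was not in the table. The other 67 all passed the count minimum, and their median stiff to soft ratio was 1.001, with an interquartile range of 0.54. At least 1 was reached by 34 (4.16% of all genes), none was at or under -1 (1.59%), and 63 were above 0 (50.9%). The highest were Pld4, an exonuclease of myeloid lysosomes (88.2, 138 and 358, ratio 2.01), and Stab1, a scavenger receptor (467, 701 and 1849, ratio 1.98). Once the trend in length and GC content is taken off, Stab1 was at 1.338, under Pld4, Cd33, Itgal, Ms4a7, Inpp5d and Arhgap30. The lowest were Evi2a at -0.11 (-0.24 to 0.03) and Cebpa, a transcription factor also made by fat cells, at -0.05 (-0.12 to 0.02), whose intervals hold 0. The most abundant was the lectin Lgals3, common to many cell types, at 0.23.

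Between intermediate and soft the median of these 67 genes was 0.33, and between stiff and intermediate it was 0.65. The ligands of Csf1r were also read. Csf1 stood at 33996, 41721 and 51726 normalized counts, with a stiff to soft ratio of 0.61 (0.59 to 0.63). Il34 stood at 233, 278 and 265, with a ratio of 0.18 and an interval from -0.08 to 0.45 that holds 0.

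Markers of other white cells were in part without a read and in part well covered. Of 15 markers of neutrophils and monocytes 7 had no read (against 33275 of all 56833 genes), among them Ly6g, S100a9 and Ly6c2. The same background holds for the other lists. The list of neutrophil and monocyte markers held 2653, 3183 and 3151 reads in all. The collagenase Mmp8 had 1376, 1970 and 2368 of these, with a stiff to soft ratio of 0.78 (0.69 to 0.88). Mmp9, also on the osteoclast list below, had 894, 816 and 467. S100a8, a calcium-binding protein, had 210, 220 and 197 reads, and Camp, an antimicrobial peptide, had 160, 170 and 115. The 4 genes of this list with enough counts had a median of -0.28. Of 12 mast cell and basophil markers 6 had no read, among them Cpa3, and the list held 1844, 1669 and 1509 reads. Most came from the protease Mcpt8, with 1106, 806 and 724 reads and a ratio of -0.61, and from the transcription factor Gata2, with 693, 816 and 738. The 49 genes held 97758, 140857 and 189236 reads.

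Of 15 markers of T and NK cells 7 had no read (against 33275 of all 56833 genes), among them Cd3e, Cd3d, Cd3g and Cd4. Other genes of that list were detected. Il7r, the receptor for interleukin 7, had 313, 540 and 571 reads, with a ratio of 0.87. The T cell receptor chains Trbc2 and Trac had 76, 105 and 41 reads and 7, 19 and 29 reads, with ratios of -0.87 and 1.91, in opposite directions. The 4 genes with enough counts had a median of -0.0043. Of 13 dendritic cell markers 5 had no read, among them Flt3, while the antigen-presenting chain H2-Ab1 had 224, 265 and 221 reads and the invariant chain Cd74 had 119, 160 and 199, with ratios of -0.02 and 0.74. Zbtb46, a transcription factor, had 61, 85 and 65, with a ratio of 0.09. The 5 with enough counts had a median of 0.12. Of 10 markers of B and plasma cells 7 had no read, among them Cd79a and Ms4a1, and the list held 4, 10 and 6 reads, most of them from Pax5. Of 6 erythroid genes none had a read. The part of other white cells in the results above was not tested.

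Markers of osteoclasts, bone-resorbing cells of the same lineage, went both ways. Of 10 such markers, 7 had a mean of at least 10, and their median stiff to soft ratio was -0.47. The integrin chain Itgb3 stood at 4192, 4484 and 2377, with a ratio of -0.82, and the protease gene Mmp9 at 917, 769 and 479, with a ratio of -0.93. Tnfrsf11a, the receptor RANK, was higher, at 59.5, 66.9 and 109, with a ratio of 0.86, and so was Atp6v0d2, a proton pump subunit, with 0.68 (0.43 to 0.92). The most abundant, the protease gene Ctsk, stood at 5277, 4743 and 3809, with a ratio of -0.47. The summed level of the list was 12176, 12574 and 8547 normalized counts. Fibroblasts make some of these genes too, so the list is no measure of osteoclasts alone.

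The 16 fibroblast genes had a median stiff to soft ratio of 0.27, and their summed level was 530006, 601367 and 685318 normalized counts, several times that of the 49 genes at 100220, 132786 and 194062. They went both ways. Fn1, the matrix protein fibronectin, and Col1a1, a collagen chain, had the highest ratios at 1.08 and 0.95, which were 0.53 and 0.42 with the trend subtracted. Between soft and stiff they went from 28877 to 61089 and from 78648 to 151834, and so made up most of the difference in the sum. Dpt and Dcn, matrix proteins that bind collagen, had the lowest, at -0.58 and -0.44. The most abundant, Sparc, was at 0.03. The 5 mural genes with enough counts had a median of -0.01, with Mcam at 0.86, Cspg4 at 0.53, Notch3 at -0.05, Rgs5 at -0.08 and the most abundant, Pdgfrb, at -0.0062. With the trend subtracted Cspg4 was at -0.12 and Notch3 at -0.69. The 2 Schwann genes, Mbp and S100b, were at 1.22 and -0.60. Of 12 endothelial genes 7 had a mean of at least 10 and a median of 1.07, which was 0.69 with the length and GC trend subtracted. Of the 7, 4 reached 1 (4.16% of all genes), and none did with the trend subtracted (3.05%). Of these 4, Vwf (5, 13 and 14 reads) and Prox1 (7, 24 and 16) passed the minimum only through the plates where they were higher. Pecam1 (12, 13 and 4 reads, ratio -1.38) fell just under it. The most abundant, Egfl7, stood at 121, 146 and 111, with a ratio of -0.13 (-0.52 to 0.26). Their summed level was 226, 305 and 286 normalized counts, with Cldn5 at 0 and Cdh5 at 5, 3 and 0 reads.

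**Figure D4:**
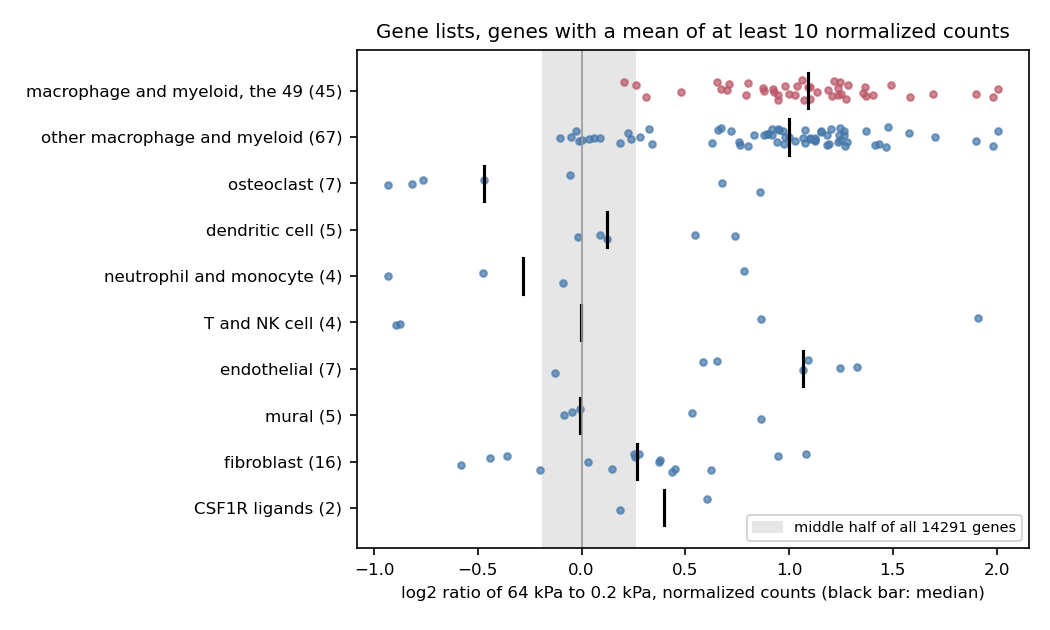
Log2 ratio of stiff to soft for each gene past the count minimum, by list, with black bars at the medians, the number of such genes in brackets and the interquartile range of all 14291 genes shaded. The 45 genes and the 67 other macrophage and myeloid genes have medians of 1.09 and 1.001, and the fibroblast genes 0.27.

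The ratios followed transcript length and GC content across all genes, and the members were compared with that trend. Across 13923 genes the stiff to soft ratio had a Spearman correlation of 0.25 with length and 0.21 with GC content, and across the 45 genes these were 0.26 and 0.35, given as descriptions of points that share the same 2 libraries. The trend for the 45 genes ran from -0.22 to 0.31 with a median of -0.05. With it subtracted their median was 1.13. Of the 45, 34 then reached 1, against 3.05% of the 13923 genes, and all 45 were above 0, against 50.1%. The interquartile range went from 0.39 to 0.30 for the 45 and from 0.44 to 0.38 for all genes. Fmnl1 and Csf1r moved the most of the 45, to 1.59 and 1.14, while Marco stayed at 2.01 and Arhgdib at 0.24.

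**Figure D5:**
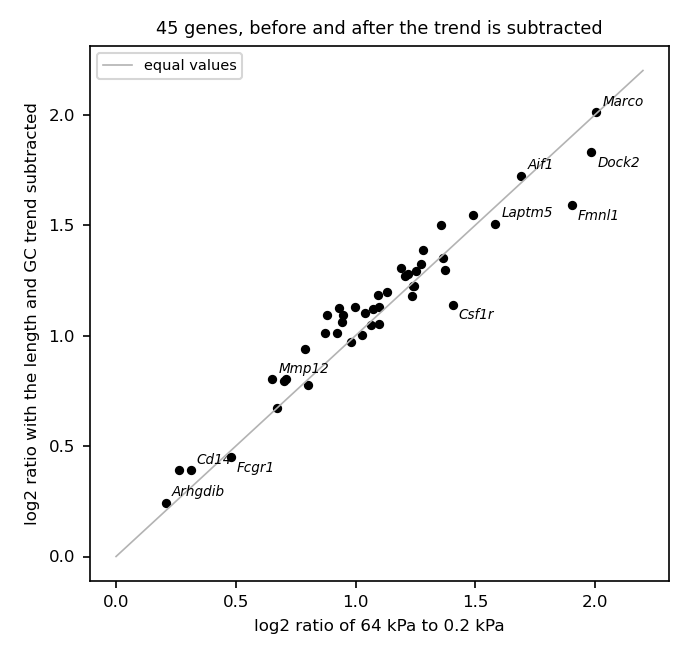
Log2 ratio of stiff to soft for the 45 genes as deposited (horizontal axis) and with the trend in transcript length and GC content subtracted (vertical axis), with a line of equal values. All points stay above 0 on both axes, and Csf1r and Fmnl1 lie farthest under the line, at 1.14 and 1.59.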

How the data were processed

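The deposited values are a signal per gene: read counts that the authors rescaled with 1 size factor for each library. The submitters' processing notes name bcl2fastq 2.20.0, STAR 2.7.9a, featureCounts, Subread 2.0.1, DESeq2 1.34.0 and GRCm39, without settings, and the strand setting and annotation are not given in the sources used here. The 3 deposited files are the same table. Every value was a whole multiple of its column's smallest positive value (tolerance 1e-06), so whole reads were recovered. No model was fitted, since there is 1 library per group.

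The 49 genes and all lists were chosen with earlier results of these data known. Log2 ratios used a pseudocount of 1, lists a minimum of 10 normalized counts on average, and calls a log2 ratio of 1. Besides the members, the genes named are, from each other list, the 2 highest and 2 lowest ratios of stiff to soft at a mean of at least 50 and the most abundant gene, with tdTomato, Efhd1 and genes outside that rule, such as Cyba and the absent and detected markers of other cells, chosen after their values were seen. Counting intervals are exact binomial at 95%, and differences between 2 genes have exact conditional intervals. Lengths, GC content, positions and overlaps come from GENCODE vM39 canonical transcripts, matched by symbol. The trend is the median ratio of the 200 genes nearest in ranks of length and GC content. Steps were tested on simulated data. Work was done in scipy 1.17.1, pandas 2.3.3 and numpy 2.4.6 under Python 3.11.15, with plots from matplotlib 3.10.9. Alternatives were other pseudocounts, filters, scalings and thresholds and the trend subtraction.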

Additional observations from a re-analysis of the deposited data

How the results depend on the processing

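With 1 library per stiffness no replicate could be left out and no count model fitted. No paired analysis was possible because each group has a single library. The median stiff to soft ratio of the members, 1.09, was 1.04 with recovered reads scaled to library totals, 1.03 with upper quartile scaling and 1.13 with the length and GC trend subtracted. Its interquartile range, 0.39, was 0.30 with the trend subtracted and 0.36 with a mean of at least 50. The 3 scalings shifted the median of all genes by -0.06 at the most. The cause of these shifts was not tested. Counts at thresholds of 0.5 and 2 differ by construction: 41 and 1 for stiff against soft (13.4% and 0.245% of all genes), 15 and 0 for intermediate against soft (6.05% and 0.035%), 33 and 1 for stiff against intermediate (7.9% and 0.112%). The 1 gene past the threshold between intermediate and soft became 2 with a pseudocount of 0.1 (Fmnl1 joined) and 2 without a filter (Lyve1 joined, at 0 and 4 reads), and the 5 between stiff and intermediate became 3 with library totals. Of 135 ratios of single members, 106 stayed within their counting intervals under all 6 alternatives, and 5 values changed sign, 4 for Ncf1 and 1 for Arhgdib, all between intermediate and soft and all within 0.03 of 0. Depth limits Aif1, Vsig4, Mertk, Cd163 and Lyve1. The summed ratio without Mmp12, Lyz2 and Gpnmb was added after seeing the data.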
